A study of Homo sapiens with 8 samples.

Results

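The small leucine-rich proteoglycans (SLRPs) are a family of secreted matrix proteins, and 10 of their genes were followed here through human intestinal epithelial cell (hIEC) cultures: DCN, BGN, LUM, ASPN, FMOD, OGN, OMD, PRELP, PODN and KERA. They were picked by symbol, 10 of the 60558 genes listed for every library, and each symbol matched a single gene. The hIECs formed a 2D layer and had been differentiated from embryonic stem cells of the established human line H9. There were 4 groups with 2 RNA-seq libraries apiece. Normal hIECs received neither cytokines nor particles, and normal hIECs with PM10 received 100 μg/ml of PM10, an airborne particulate matter preparation, for the last 7 days. Inflamed hIECs were kept for 10 days in IFNγ and TNFα at 50 ng/ml each, and inflamed hIECs with PM10 received the cytokines and the particles on the same schedules. All groups came from the H9 line alone, with no genetic change named, and each sample record states a 10-day treatment. Nothing in the records says that the libraries of a group were separate cultures, so every p-value below measures the spread between these libraries, which may be technical.

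SLRPs carry a row of leucine-rich repeats that binds collagen fibrils and sets how thick the fibrils grow and how they are spaced. Many also bear chondroitin, dermatan or keratan sulfate chains, hold growth factors such as TGF-β in the matrix, and can signal through Toll-like receptors when fragments are released. In the intestine they are known mainly as products of fibroblasts and smooth muscle below the epithelium.

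The upstream sequences of 4 of the genes are shown because these genes gave the contrast the results turn on. ASPN, OGN and FMOD had much lower levels in all libraries with cytokines, whereas BGN, the gene with the highest level, kept a high level in every group. Each sequence is the 250 bases before the RefSeq transcription start (GRCh38.p14), written 5′ to 3′ in the direction of the gene, with motif matches in capitals. A match on the other strand appears as its reverse complement, such as TTTATA for a TATA box or CCGCCC for a GC box. The windows are chr9:92482507-92482756 (minus strand) for ASPN, chr9:92404700-92404949 (minus strand) for OGN, chr1:203351123-203351372 (minus strand) for FMOD and chrX:153494730-153494979 (plus strand) for BGN.
ASPN: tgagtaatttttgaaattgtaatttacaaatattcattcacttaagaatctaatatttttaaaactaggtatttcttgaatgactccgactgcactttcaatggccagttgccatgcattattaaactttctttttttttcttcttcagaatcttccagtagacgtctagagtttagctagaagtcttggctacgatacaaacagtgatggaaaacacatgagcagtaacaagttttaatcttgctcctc
OGN: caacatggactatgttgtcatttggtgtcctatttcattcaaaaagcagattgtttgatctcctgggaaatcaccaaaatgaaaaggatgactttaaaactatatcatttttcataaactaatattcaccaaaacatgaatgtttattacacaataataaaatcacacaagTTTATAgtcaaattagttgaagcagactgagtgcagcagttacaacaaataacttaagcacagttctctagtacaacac
FMOD: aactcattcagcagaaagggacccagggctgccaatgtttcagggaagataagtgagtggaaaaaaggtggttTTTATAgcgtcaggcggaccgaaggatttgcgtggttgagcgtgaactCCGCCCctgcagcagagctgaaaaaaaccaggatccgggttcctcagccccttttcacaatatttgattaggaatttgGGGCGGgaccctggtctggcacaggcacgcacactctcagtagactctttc
BGN: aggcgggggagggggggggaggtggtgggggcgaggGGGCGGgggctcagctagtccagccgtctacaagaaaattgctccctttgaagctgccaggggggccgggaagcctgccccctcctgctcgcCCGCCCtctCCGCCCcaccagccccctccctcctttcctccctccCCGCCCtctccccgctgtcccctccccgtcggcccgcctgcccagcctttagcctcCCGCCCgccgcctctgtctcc
The ASPN and OGN windows were AT-rich, with 32.4% and 31.2% G and C, against a median of 58.0% over all 35095 windows of the same length. The BGN window held 74.0% G and C and the FMOD window 51.6%. ECM2, a further family gene beside ASPN, also had an AT-rich window (36.0% G and C), but its RefSeq start lay 665 bases from the GENCODE start. EPYC, a family gene that was higher in the libraries with cytokines, had an AT-rich window as well (35.6% G and C). A link between base content and level was not tested.

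Motifs were searched on both strands, and they are counted separately where they overlap. They were the TATA box (TATAAA, present in 10.7% of all windows), the core of the interferon-stimulated response element (a pair of GAAA with any 2 bases between them, 3.02%), the NF-κB site (9.95%), the AP-1 site (TGANTCA, 6.57%) and the GC box (GGGCGG, 42.6%). Positions are those of the first base of a match, counted from the start. OGN had a TATA box at -79. FMOD had a TATA box at -177 and GC boxes at -129 and -51, but its RefSeq start lay 636 bases from the GENCODE start of the gene. BGN had 5 GC boxes, at -214, -122, -113, -77 and -21, and no match to the other motifs. The ASPN window held none of these letters. Of the other members, PODN had 2 GC boxes (-90 and -66) in a window with 72.4% G and C, and the PRELP window held none of the motifs. Windows were at hand for 6 of the 10 members, and DCN, LUM, OMD and KERA had none.

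Levels are given in FPKM, which divides the fragments of a gene by its transcript length and by the mapped fragments of the library, so that genes of different length can be compared. The lowest value above 0 ranged from 0.164 to 0.228 FPKM across the 8 libraries, and 16547 to 18926 genes were above 0 in a library. A gene listed at 0 may therefore still have been present below this level. Genes encoded by mitochondrial DNA took 15.5% to 24.2% of the FPKM sum, with the highest share in the second normal library. The cultures were named for the intestinal epithelium, but 9 of 17 epithelial markers fixed for this check were listed at 0 in all libraries, among them the enterocyte gene VIL1, the intestinal transcription factor CDX2 and the goblet cell mucin MUC2. CDH1, the epithelial cadherin, was at 0 in 7 libraries and at 0.221 FPKM in the other one, and EPCAM reached at most 0.622 FPKM. By contrast, the mesenchymal intermediate filament gene VIM lay between 718 and 973 FPKM. Other markers of both lists went the other way. Among the epithelial markers, the keratin genes KRT8 and KRT18 had means of 378 and 266 FPKM in normal hIECs, SOX9 of 14.2 and LGR5 of 2.32. Among the mesenchymal markers, MYH11 and FOXF2 were listed at 0 in all 8 libraries. In bulk RNA of this kind, fewer cells of a type and less RNA per cell cannot be told apart.

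Class I of the family holds DCN, BGN and ASPN. BGN encodes biglycan, which carries chondroitin or dermatan sulfate chains and whose soluble form engages Toll-like receptors (ENSG00000182492, chrX:153494980-153509546, plus strand, positions from GENCODE release 44 on GRCh38). It was the most abundant member in every library. Its level was 333 and 385 FPKM in normal hIECs, 199 and 212 with PM10, 394 and 396 in inflamed hIECs, and 250 and 248 with both treatments (cytokines and PM10). All libraries with PM10 lay below all libraries without it, and the 2 normal libraries differed from each other more than the libraries of any other group.

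DCN encodes decorin, a close relative of biglycan that binds type I collagen and TGF-β (ENSG00000011465, chr12:91140484-91183217, minus strand). It was at 76.5 and 72.5 FPKM in normal hIECs, 70.1 and 65.9 with PM10, 67.8 and 63.0 in inflamed hIECs, and 41.8 and 37.1 with both treatments. The inflamed libraries with PM10 stood below all others, and inflamed hIECs overlapped with normal hIECs with PM10.

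ASPN encodes asporin, a class I protein without sulfated chains that binds collagen and TGF-β (ENSG00000106819, chr9:92456205-92482506, minus strand). It was at 84.3 and 70.4 FPKM in normal hIECs and at 74.4 and 72.0 with PM10. In inflamed hIECs it was at 0.404 and 0.435 FPKM, close to the lowest values listed, and in inflamed hIECs with PM10 it was listed at 0 in both libraries. The libraries with and without cytokines were thus far apart, while those of normal hIECs with and without PM10 overlapped.

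Class II holds LUM, FMOD, PRELP, KERA and OMD. LUM encodes lumican, a keratan sulfate proteoglycan of cornea and many connective tissues (ENSG00000139329, chr12:91102629-91111494, minus strand). Its level was 37.9 and 39.9 FPKM in normal hIECs, 45.2 and 44.3 with PM10, 98.1 and 97.1 in inflamed hIECs, and 141 and 139 with both treatments. No group overlapped with another, and the order of the group means was the reverse of that of DCN.

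FMOD encodes fibromodulin, which binds the same region of type I collagen as lumican (ENSG00000122176, chr1:203340628-203351758, minus strand). It was weakly expressed, at 2.02 and 1.87 FPKM in normal hIECs and 1.91 and 1.63 with PM10, and it was listed at 0 in all 4 libraries with cytokines. PRELP (ENSG00000188783, chr1:203475806-203491352, plus strand), which links basement membranes to the matrix below, was listed at 0 in all 8 libraries. The same held for KERA (ENSG00000139330, chr12:91050491-91058024, minus strand), which encodes the corneal proteoglycan keratocan, and for OMD (ENSG00000127083, chr9:92412380-92424471, minus strand), which encodes the bone proteoglycan osteomodulin.

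OGN, of class III, encodes osteoglycin, also called mimecan (ENSG00000106809, chr9:92383268-92404696, minus strand). It was the second most abundant member without cytokines, at 120 and 103 FPKM in normal hIECs and 114 and 111 with PM10. It was at 4.42 and 4.61 FPKM in inflamed hIECs and at 1.01 and 0.712 in inflamed hIECs with PM10. PODN, of class V, encodes podocan (ENSG00000174348, chr1:53062052-53085501, plus strand). It stood at 1.32 and 1.42 FPKM in normal hIECs, 1.22 and 1.17 with PM10, 0.411 and 0.373 in inflamed hIECs, and 0 in both libraries with both treatments. For OGN the groups without cytokines overlapped each other, and for PODN no groups overlapped.

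**Figure D1:**
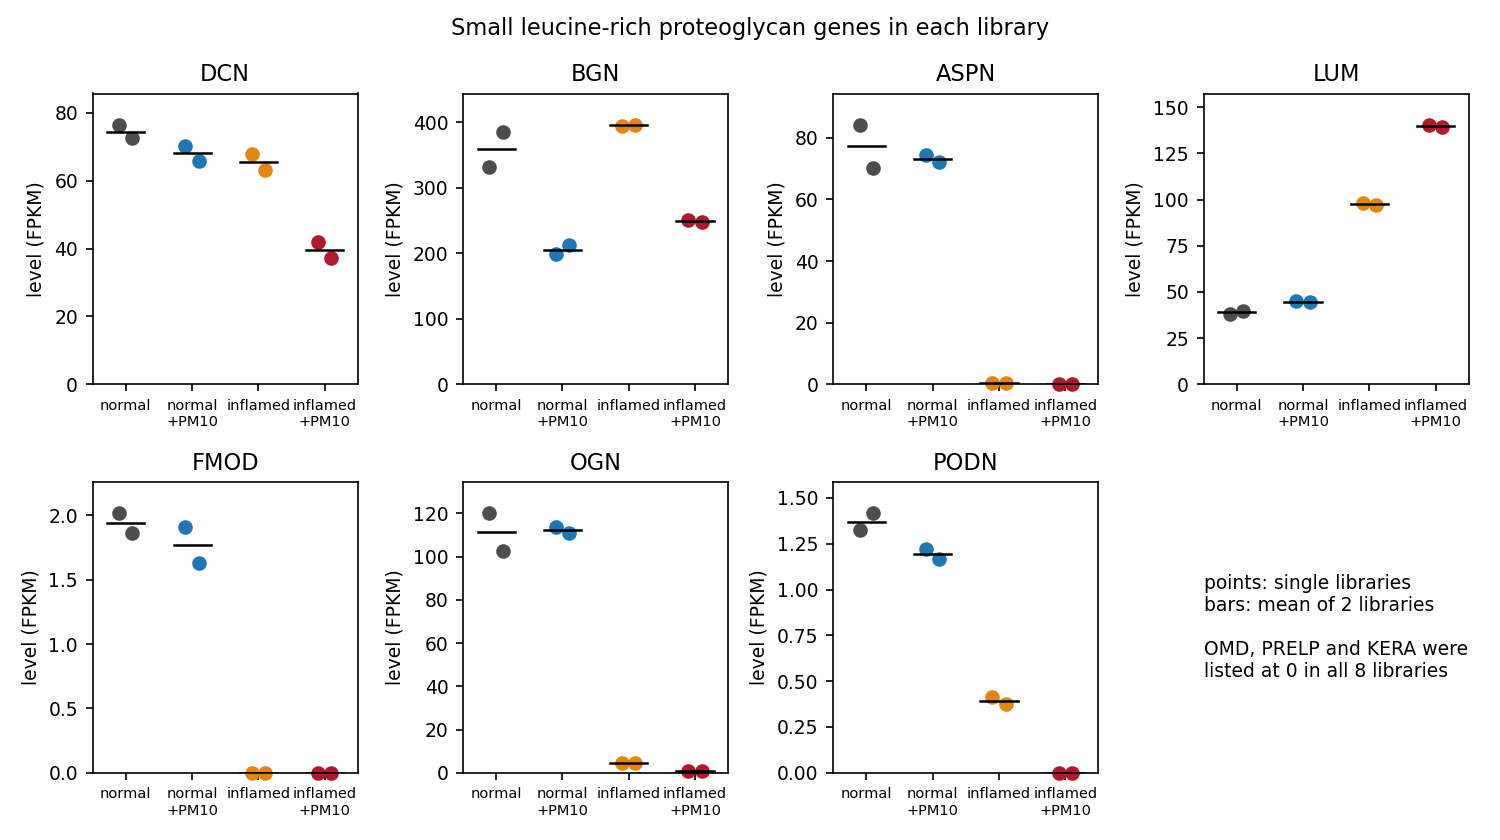
Level of the 7 SLRP genes above 0, in FPKM on a linear axis from 0, for the 2 libraries of each group (points) with the group mean (bar). ASPN, OGN, FMOD and PODN were lower in all libraries with cytokines, LUM was higher there, and BGN was lower in all libraries with PM10.

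Ordered by mean level, normal hIECs ran BGN (359 ± 37.4 FPKM, SD, n = 2), OGN (111 ± 12.3), ASPN (77.3 ± 9.85), DCN (74.5 ± 2.86), LUM (38.9 ± 1.38), FMOD (1.94 ± 0.106) and PODN (1.37 ± 0.0669). The libraries of ASPN and DCN overlapped, so their order in normal hIECs was not set beyond the spread. Normal hIECs with PM10 kept the same order, with no overlap between neighbours. In inflamed hIECs the order became BGN (395 ± 1.47 FPKM), LUM (97.6 ± 0.673), DCN (65.4 ± 3.41), OGN (4.51 ± 0.130), ASPN (0.420 ± 0.0221) and PODN (0.392 ± 0.0271), of which only ASPN and PODN overlapped. In inflamed hIECs with PM10, BGN (249 ± 1.99 FPKM), LUM (140 ± 0.928), DCN (39.4 ± 3.34) and OGN (0.860 ± 0.210) followed each other without overlap, and the other 6 genes were listed at 0.

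Groups were compared on the log2(FPKM + 1) scale, which understates changes of weakly expressed genes, with limma, a linear model that shares its estimate of the spread across genes. All 8 libraries entered the fit, p-values were adjusted over the 14206 genes that reached 1 FPKM in 2 or more libraries, and an adjusted p under 0.05 was the threshold for a call. Of the 10 members, 7 were tested and the 3 listed at 0 throughout were not. ASPN, FMOD and PODN reached the minimum only through the groups without cytokines, so they could enter the test only by being higher there. The same limit, in either direction, is given below for the genes of other lists that it touches. No fold is given against a group listed at 0. Permuting 2 against 2 libraries exactly, two-sided, allows no p smaller than 0.333 for a gene, so no such test is reported.

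The first question was what the cytokines did to these genes without PM10. ASPN and OGN fell from among the highest members to low levels, and LUM rose. Group means were 184-fold lower for ASPN and 24.7-fold lower for OGN, and 2.51-fold higher for LUM. The ASPN ratio rests on values near the lowest listed and is therefore imprecise. On the log2 scale ASPN fell by 5.78 (SE 0.086, adjusted p = 1.03e-08), OGN fell by 4.34 (SE 0.097, adjusted p = 7.49e-08), and LUM rose by 1.31 (SE 0.045, adjusted p = 6.17e-07). PODN fell by 0.77 (SE 0.090, adjusted p = 0.000297), with a mean 3.49-fold lower. FMOD, listed at 0 in inflamed hIECs, was also called lower (adjusted p = 1.24e-05). In all, 1 member was called higher and 4 lower, while 25.9% of all genes tested were called higher and 30.3% lower. The median log2 difference was -0.03 over all genes tested and -0.77 over the 7 members tested. The latter is the value of PODN, which was -1.58 with a pseudocount of 0.1, and 3 of these 7 members passed the minimum only where they were high, so this median supports nothing about the family.

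For the class I genes BGN and DCN no difference was called in the same comparison. BGN differed by 0.14 on the log2 scale (95% interval -0.03 to 0.31, adjusted p = 0.127) and DCN by -0.18 (interval -0.35 to -0.01, adjusted p = 0.0622). Either gene was called in some alternatives. BGN was called higher without the second normal library (0.25, adjusted p = 0.00543) and after quantile normalization (0.31, adjusted p = 0.00318). DCN was called lower without the first (adjusted p = 0.0493) or the second (adjusted p = 0.0492) inflamed library with PM10.

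With PM10 present in both groups, the cytokine comparison gave the same directions for the genes above. LUM was 3.13-fold higher in inflamed hIECs with PM10 than in normal hIECs with PM10 (1.62 on the log2 scale, SE 0.045, adjusted p = 1.64e-07). OGN was 131-fold lower (-5.93, SE 0.097, adjusted p = 1.26e-08). ASPN (adjusted p = 7.39e-09), FMOD (adjusted p = 1.12e-05) and PODN (adjusted p = 2.95e-05) were called lower against a group in which they were listed at 0. Here DCN was called too, 1.72-fold lower (-0.77, SE 0.072, adjusted p = 6.69e-05), and BGN was 1.21-fold higher (0.28, SE 0.072, adjusted p = 0.0111). The members counted 2 higher and 5 lower, against 25.8% of all genes called higher and 39.6% lower, and the median log2 difference of all genes tested was itself -0.11. The BGN call did not pass without the first normal library with PM10 (adjusted p = 0.072) or without the first inflamed library with PM10 (adjusted p = 0.0553). The median of the members, -1.13, was that of PODN, which was listed at 0 in inflamed hIECs with PM10, so its size depends on the pseudocount.

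In normal hIECs, BGN was lower with PM10, and most other members did not pass the threshold. BGN fell 1.75-fold in the mean, by 0.80 on the log2 scale (SE 0.072, adjusted p = 0.00227). LUM rose by 0.20 (SE 0.045, adjusted p = 0.0392), a mean 1.15-fold higher. Of the other tested members, OGN differed by 0.02 (interval -0.21 to 0.24), ASPN by -0.07 (-0.28 to 0.13), FMOD by -0.09 (-0.32 to 0.14), PODN by -0.11 (-0.32 to 0.10) and DCN by -0.13 (-0.30 to 0.04), with adjusted p from 0.276 to 0.93. Thus 1 member was called higher and 1 lower, with 5.51% of all genes called higher and 3.72% lower. After median centring of the libraries these shares of all genes were 3.96% and 5.27%, and after quantile normalization 4.42% and 4.46%. The LUM call was weak, with an adjusted p of 0.132 after median centring of the libraries, and 0.179 and 0.136 without the first or the second normal library with PM10. The adjusted p of LUM also lay between 0.0787 and 0.0821 when any one library with cytokines was left out, and that of BGN was 0.0921 when these 2 groups were fitted alone.

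In inflamed hIECs, PM10 was followed by lower values of DCN, BGN and OGN and by a further rise of LUM. DCN fell by 0.72 on the log2 scale (SE 0.072, adjusted p = 0.00144), a mean 1.66-fold lower, and BGN fell by 0.67 (SE 0.072, adjusted p = 0.0018), a mean 1.59-fold lower. OGN, already low, fell by 1.57 (SE 0.097, adjusted p = 0.000207), and LUM rose by 0.51 (SE 0.045, adjusted p = 0.000897), a mean 1.43-fold higher. ASPN (adjusted p = 0.0104) and PODN (adjusted p = 0.0152) went from just above the lowest listed values to 0 and were called lower, and FMOD was listed at 0 in both groups. The members counted 1 higher and 5 lower, beside 6.22% of all genes called higher and 9.02% called lower. The calls of ASPN and PODN did not survive leaving out either inflamed library or either inflamed library with PM10 (adjusted p from 0.0566 to 0.0792). The median log2 difference was -0.51 over the 7 members tested, the value of ASPN, and -0.01 over all genes tested. ASPN was near the lowest listed values here, and its difference was -2.38 with a pseudocount of 0.1. This median therefore supports nothing about the family.

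**Figure D2:**
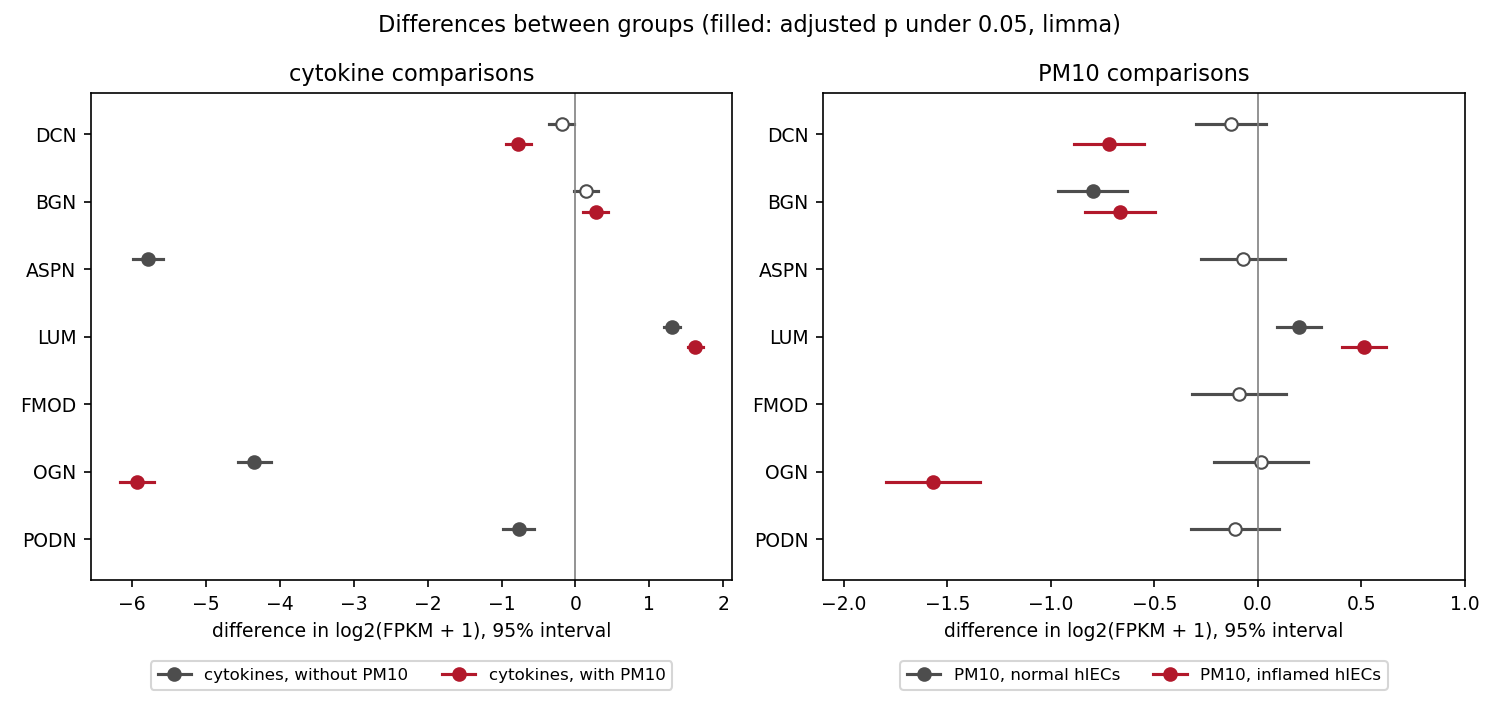
Difference in log2(FPKM + 1) with its 95% interval from limma for each tested SLRP gene, cytokine comparisons on the left and PM10 comparisons on the right; filled points passed an adjusted p of 0.05, and comparisons with a group listed at 0 are not drawn. ASPN and OGN lie far to the left in the cytokine comparisons, LUM lies to the right in every comparison, and BGN lies to the left in both PM10 comparisons.

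The interaction term of the fit asked whether PM10 acted differently on inflamed and on normal hIECs. The PM10 difference of OGN was lower by 1.59 on the log2 scale in inflamed hIECs (-1.57 against 0.02, SE of the interaction 0.137, adjusted p = 0.00178). That of DCN was lower by 0.59 (-0.72 against -0.13, SE 0.102, adjusted p = 0.0215), and that of LUM was higher by 0.32 (0.51 against 0.20, SE 0.064, adjusted p = 0.032). BGN fell with PM10 in both settings, and its interaction was 0.13 (interval -0.10 to 0.37, adjusted p = 0.479). ASPN (adjusted p = 0.0834) and PODN (adjusted p = 0.141) did not pass, nor did FMOD (adjusted p = 0.747). In all, 1 member was called higher and 2 lower, where 2.11% of all genes were called higher and 4.48% lower. Median centring moved these shares of all genes to 3.19% and 3.79%, and quantile normalization to 2.99% and 3.43%.

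Of these interactions only that of OGN held in all alternatives tried, with adjusted p from 0.0011 to 0.0153. The DCN interaction lost its call without either normal library with PM10 (adjusted p = 0.0836 and 0.0588), without either inflamed library (0.0822 and 0.0548) and without the second inflamed library with PM10 (0.0687). The LUM interaction lost its call without either library of these 3 groups, with adjusted p from 0.0966 to 0.115. The ASPN interaction was called without the first normal library (adjusted p = 0.0179).

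The make-up of the family shifted along with these levels. The summed FPKM of the 10 genes was 655 and 674 in normal hIECs, 505 and 508 with PM10, 566 and 562 in inflamed hIECs, and 434 and 425 in inflamed hIECs with PM10. BGN took 54.0% ± 4.52 (SD, n = 2) of the sum in normal hIECs, 40.6% ± 1.69 with PM10, 58.0% ± 0.411 with both treatments and 70.1% ± 0.570 in inflamed hIECs. Its share in inflamed hIECs was thus above that in normal hIECs while its level was not called different. The shares of one library add up to the whole, so a rise of one share lowers the others.

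OGN and ASPN made up 16.8% ± 2.2 and 11.7% ± 1.72 of the sum in normal hIECs, and 22.2% ± 0.443 and 14.4% ± 0.390 with PM10. In inflamed hIECs they made up 0.801% ± 0.0266 and 0.0744% ± 0.0043, and OGN made up 0.200% ± 0.0458 in inflamed hIECs with PM10. LUM moved the other way, from 5.85% ± 0.0864 in normal hIECs to 8.83% ± 0.163 with PM10, 17.3% ± 0.0431 in inflamed hIECs and 32.6% ± 0.274 with both treatments. DCN stayed between 8.73% and 13.9% in all libraries. The ratio of LUM to DCN, neighbours on chromosome 12, was 0.495 and 0.550 in normal hIECs, 0.645 and 0.672 with PM10, 1.45 and 1.54 in inflamed hIECs, and 3.36 and 3.75 with both treatments. DCN thus had the higher level in every library without cytokines and LUM in every library with them.

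**Figure D3:**
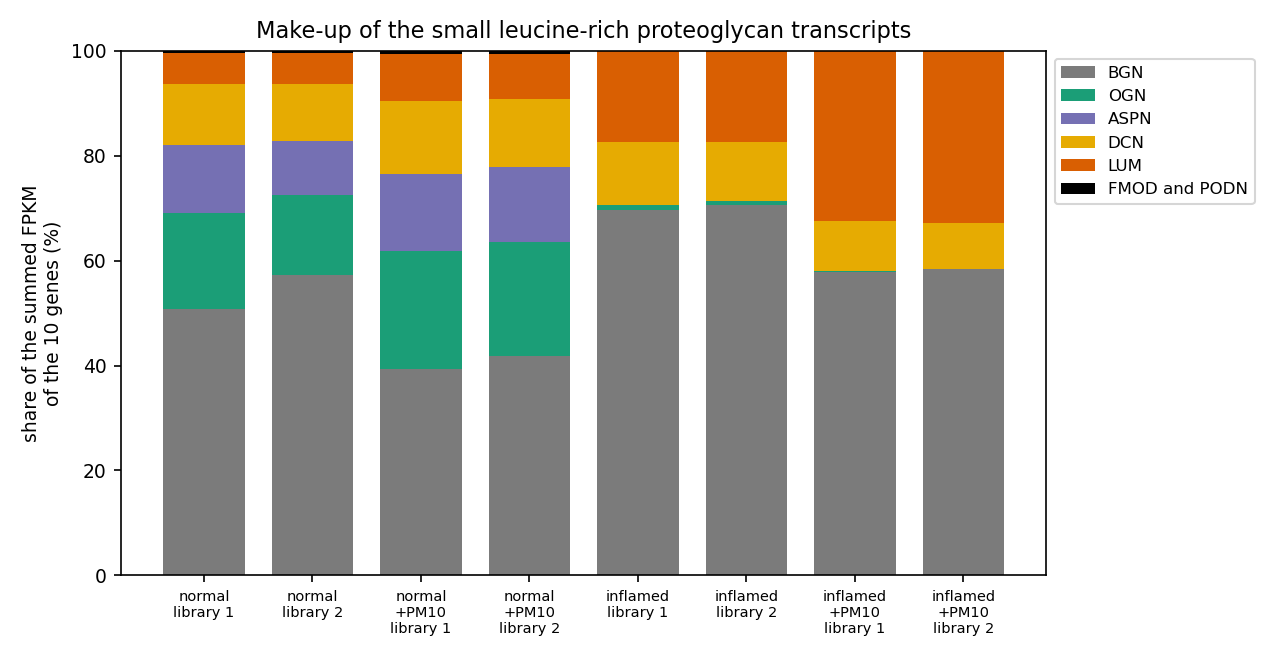
Share of the summed FPKM of the 10 SLRP genes taken by each gene, in percent, for each of the 8 libraries; OMD, PRELP and KERA were at 0. The shares of OGN and ASPN nearly vanish in the 4 libraries with cytokines, and the share of LUM reaches 32.4% and 32.8% in inflamed hIECs with PM10.

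Several of these genes lie side by side in the genome. On chromosome 9, OGN, OMD, ASPN and ECM2 follow each other on the minus strand, with gaps of 7683, 31733 and 11047 bases. ECM2 (chr9:92493554-92536655, minus strand), which encodes extracellular matrix protein 2, was at 3.81 and 3.5 FPKM in normal hIECs, 3.52 and 3.42 with PM10, 1.08 and 1.27 in inflamed hIECs, and 0.580 and 0.646 with both treatments. Like OGN and ASPN it fell in inflamed hIECs (by 1.10 on the log2 scale, adjusted p = 3.42e-05), and OMD between them was listed at 0 throughout. Further out, NOL8, 57631 bases from OGN, lay between 4.24 and 7.08 FPKM over the 8 libraries, and IPPK, 76527 bases from ECM2, lay between 1.10 and 1.98 FPKM. CENPP spans all 4 genes on the opposite strand without exon overlap and lay between 1.01 and 1.49 FPKM. The libraries carry no strand information, and CENPP was far below OGN and ASPN in the libraries without cytokines. In inflamed hIECs it was above ASPN (1.40 and 1.42 FPKM against 0.404 and 0.435), and with both treatments it was at 1.09 and 1.02 FPKM against 1.01 and 0.712 for OGN.

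On chromosome 12, EPYC, KERA, LUM and DCN follow each other on the minus strand, with gaps of 45464, 44604 and 28989 bases, and here the neighbours differed. EPYC (chr12:90963682-91005026, minus strand), which encodes the cartilage proteoglycan epiphycan, was listed at 0 in all 4 libraries without cytokines, at 3.03 and 4.30 FPKM in inflamed hIECs and at 5.68 and 5.40 with both treatments. It was called higher in inflamed than in normal hIECs (adjusted p = 9.11e-06), but it passed the minimum only through the libraries with cytokines and could be tested only by being higher there. KERA, between EPYC and LUM, was listed at 0. On chromosome 1, FMOD and PRELP lie 124047 bases apart, and OPTC, 2800 bases beyond PRELP, was listed at 0 like PRELP. BGN and PODN have no family neighbour. BGN overlaps HAUS7 on the opposite strand without shared exons (6.28 to 9.45 FPKM), and exons of PODN overlap 2 genes on the opposite strand, HIGD1AP11 and ENSG00000232993, which were listed at 0.

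**Figure D4:**
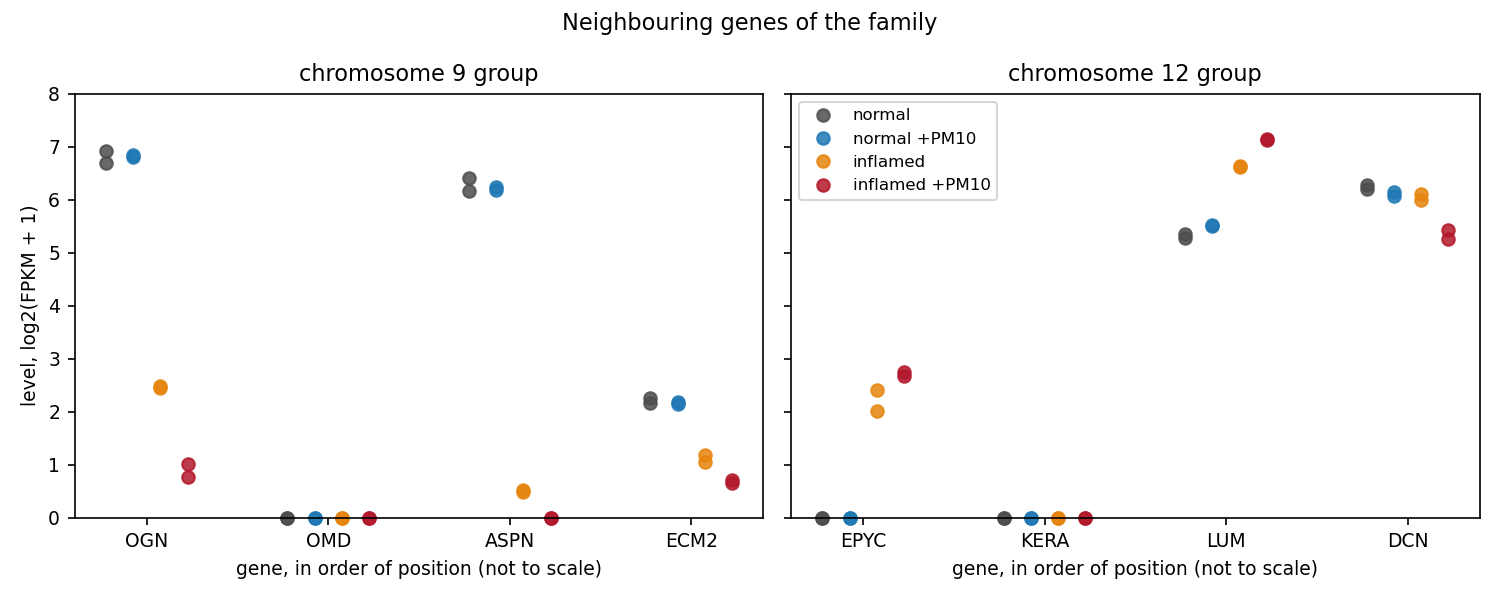
Level on the log2(FPKM + 1) scale of 4 neighbouring genes on chromosome 9 (left) and 4 on chromosome 12 (right), in order of position, with a point for each library. OGN, ASPN and ECM2 are lower in the libraries with cytokines, whereas EPYC and LUM are higher there and DCN is lowest in inflamed hIECs with PM10.

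Of 8 further genes of the family, 3 were tested, 3 were listed at 0 in all libraries, and the remaining 2 did not reach the minimum. Besides ECM2 and EPYC this was TSKU, which encodes tsukushi, and which rose from 17.9 and 17.7 FPKM in normal hIECs to 24.0 and 25.5 in inflamed hIECs (adjusted p = 0.000529). Thus TSKU and EPYC were called higher and ECM2 lower, where EPYC could enter the test in that direction only. With PM10 in inflamed hIECs, EPYC was called higher (adjusted p = 0.0415) and ECM2 lower (adjusted p = 0.0172).

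Further lists of genes tied to SLRPs are set against the shares of all genes called in inflamed hIECs, 25.9% higher and 30.3% lower. Of 31 genes for enzymes that build the sulfated chains of SLRPs, 26 were tested, and 7 were called higher (26.9%) and 7 lower (26.9%), close to those shares. Of the 26, CHST7 passed the minimum only through the libraries with cytokines, and it was not called. XYLT1, which starts the chain on the core protein, rose from 3.98 ± 0.435 to 8.97 ± 0.394 FPKM (SD, n = 2, adjusted p = 3.63e-05). The galactosyltransferases B4GALT1 and B4GALT4, which act in keratan sulfate synthesis, rose by 1.07 and 1.14 on the log2 scale (adjusted p = 2.23e-06 and 3.28e-05). CHST15, a chondroitin sulfotransferase, rose by 1.03 (adjusted p = 5.92e-06). PM10 gave 4 higher and 0 lower by limma in normal hIECs, beside 5.51% and 3.72% of all genes, or 3.96% and 5.27% after median centring. In inflamed hIECs it gave 1 higher and 1 lower, beside 6.22% and 9.02% of all genes.

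All 14 genes of collagens that SLRPs bind were tested, with 7 higher and 6 lower in inflamed hIECs, where 25.9% and 30.3% of all genes were called, and a median log2 difference of 0.04. The fibril-associated collagen genes COL12A1 and COL14A1 moved apart, with COL12A1 rising from 88.0 ± 5.47 to 197 ± 1.03 FPKM (adjusted p = 2.15e-06) and COL14A1 falling from 12.9 ± 2.17 to 3.15 ± 0.219 (adjusted p = 1.13e-05). COL2A1, the main fibrillar collagen gene of cartilage, fell by 1.51 (adjusted p = 3.29e-05) but passed the minimum only through the libraries without cytokines. The same held for COL11A2, which was also called lower. COL11A1, of the minor fibrillar type XI, rose by 0.75 (adjusted p = 6.33e-05). In inflamed hIECs PM10 gave 1 higher and 5 lower (6.22% and 9.02% of all genes), and in normal hIECs 2 higher and 3 lower (5.51% and 3.72% of all genes).

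Proteases that process or cleave SLRPs included a gene with a large change, MMP9, a gelatinase. It rose from 5.67 ± 0.394 FPKM in normal to 195 ± 0.747 in inflamed hIECs, by 4.88 on the log2 scale (adjusted p = 3.29e-09). The aggrecanase gene ADAMTS4 rose by 1.73 (adjusted p = 2.39e-06), having passed the minimum only through the libraries with cytokines. The collagenase gene MMP13 rose by 1.16 (adjusted p = 3.19e-06), while PCOLCE, an enhancer of procollagen processing, fell by 0.82 (adjusted p = 6.48e-06). Of the 15 genes 8 were tested, and 4 were called higher and 4 lower, beside 25.9% and 30.3% of all genes. With PM10 in normal hIECs, 3 were called higher and 1 lower (5.51% and 3.72% of all genes). With PM10 in inflamed hIECs, 3 were also called higher and 1 lower (6.22% and 9.02% of all genes).

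Of 25 genes for ligands and receptors that SLRPs bind, 19 were tested, with 10 higher (52.6%) and 4 lower (21.1%) in inflamed hIECs, beside 25.9% and 30.3% of all genes. Of the 19, 4 passed the minimum only through the libraries with cytokines and 1 only through those without, so the minimum set part of each direction. TGFBR2, a TGF-β receptor, rose from 9.03 ± 0.609 to 36.0 ± 0.148 FPKM (adjusted p = 4.08e-07). Among the ligands, TGFB3 fell by 1.68 (adjusted p = 2.3e-05) and BMP4 by 1.58 (adjusted p = 1.32e-06), and BMP6, the 1 gene that passed the minimum only without cytokines, was listed at 0 in inflamed hIECs (adjusted p = 1.3e-05). PM10 in inflamed hIECs gave 5 higher and 0 lower by limma (6.22% and 9.02% of all genes), and in normal hIECs 2 higher and 1 lower (5.51% and 3.72%). BMP2, among those higher in inflamed hIECs, reached the minimum only with both treatments. BMP6, the gene lower in normal hIECs, reached it only in normal hIECs without PM10. Each of these calls could go in that direction only.

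Markers of several cell types were counted beside the members. Of 18 mesenchymal markers, 15 were tested, and 8 were called higher (53.3%) and 5 lower (33.3%) in inflamed hIECs, where 25.9% and 30.3% of all genes were called. DES, among those called higher, passed the minimum only through the libraries with cytokines. Their summed level was 3183 to 3356 FPKM in normal, 2785 to 2788 with PM10, 4299 to 4350 in inflamed hIECs, and 4183 to 4211 with both treatments. It was thus higher in all libraries with cytokines, and its relation to the levels of ASPN and OGN was not tested. This rise was carried largely by TAGLN (means of 876 FPKM in normal and 1376 in inflamed hIECs), ACTA2 (688 and 1015) and POSTN (330 and 466). FBN1 (fibrillin) rose by 0.91 (adjusted p = 2.4e-05) and TAGLN (transgelin) by 0.65 (adjusted p = 2.7e-05), while PDGFRA fell by 0.69 (adjusted p = 6.48e-05) and TWIST1 by 0.65 (adjusted p = 0.000198).

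The tendon and cartilage markers did not move as 1 group. Their summed level, like ASPN and OGN, was lower in the libraries with cytokines. It was 143 to 155 FPKM in normal hIECs, 124 to 125 with PM10, 48.8 to 51.0 in inflamed hIECs and 33.5 to 34.2 with both treatments. SCX, the tendon transcription factor, fell from 39.6 ± 2.49 to 5.72 ± 0.016 FPKM (adjusted p = 1.47e-07), and TNMD, the tendon gene tenomodulin, from 83.8 ± 4.2 to 18.8 ± 0.207 (adjusted p = 1.95e-07). The cartilage genes ACAN and COL9A1, low in normal hIECs, were listed at 0 in inflamed hIECs (adjusted p = 2e-05 and 4.89e-05), and they passed the minimum only through normal hIECs. The other 3 tested markers, named after their values were seen, did not fall. MATN3, a cartilage matrilin, was at 0.706 ± 0.34 FPKM in normal and 2.93 ± 0.224 in inflamed hIECs (adjusted p = 0.000202). COMP, a cartilage matrix protein, was at 0 and 0.728 ± 0.105 (adjusted p = 0.000414), and both passed the minimum only through libraries with cytokines. The tendon transcription factor MKX was at 18.7 ± 0.862 and 20.8 ± 1.22 FPKM (adjusted p = 0.0724). Of the 10 markers 7 were thus tested, with 2 called higher and 4 lower, beside 25.9% and 30.3% of all genes, and 4 of the 7 passed the minimum on 1 side only. With PM10 in normal hIECs, 3 were called lower and 0 higher by limma (3.72% and 5.51% of all genes), while ASPN and OGN were not called. The 3 were TNMD, ACAN and COL9A1. Of these, ACAN and COL9A1 reached 1 FPKM only in normal hIECs without PM10, so they could only be lower here. The part of such cells in the levels of ASPN and OGN was not tested.

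Of the 17 epithelial markers 5 were tested, and 1 was called higher and 3 lower, where 25.9% and 30.3% of all genes were called, with summed levels of 659 to 668 FPKM in normal and 356 to 361 in inflamed hIECs that were carried by the keratin genes KRT8 and KRT18. LGR5 was called higher, with means of 2.32 FPKM in normal and 5.47 in inflamed hIECs. Those called lower were SOX9 (14.2 and 3.92 FPKM), KRT18 and KRT8. Of 9 neuronal markers 6 were tested, with 1 called higher and 4 lower against the same shares. STMN2 had the highest level among them, with means of 118 FPKM in normal and 53.2 in inflamed hIECs. SYT1 was called higher (2.67 and 5.07 FPKM). DCX, among those called lower, passed the minimum only through the libraries without cytokines. Of 8 endothelial and blood cell markers 5 were listed at 0 in all libraries, with summed levels of at most 2.32 FPKM in any library. CD68, a macrophage marker and the one that was tested, differed by -0.14 between inflamed and normal hIECs (adjusted p = 0.519). It was at 1.11 and 1.83 FPKM in inflamed hIECs with PM10 and at most 0.510 in any other library, and passed the minimum through that group alone. It was called higher there than in inflamed hIECs (0.84, adjusted p = 0.021), with an interaction of 1.24 (adjusted p = 0.0319).

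**Figure D5:**
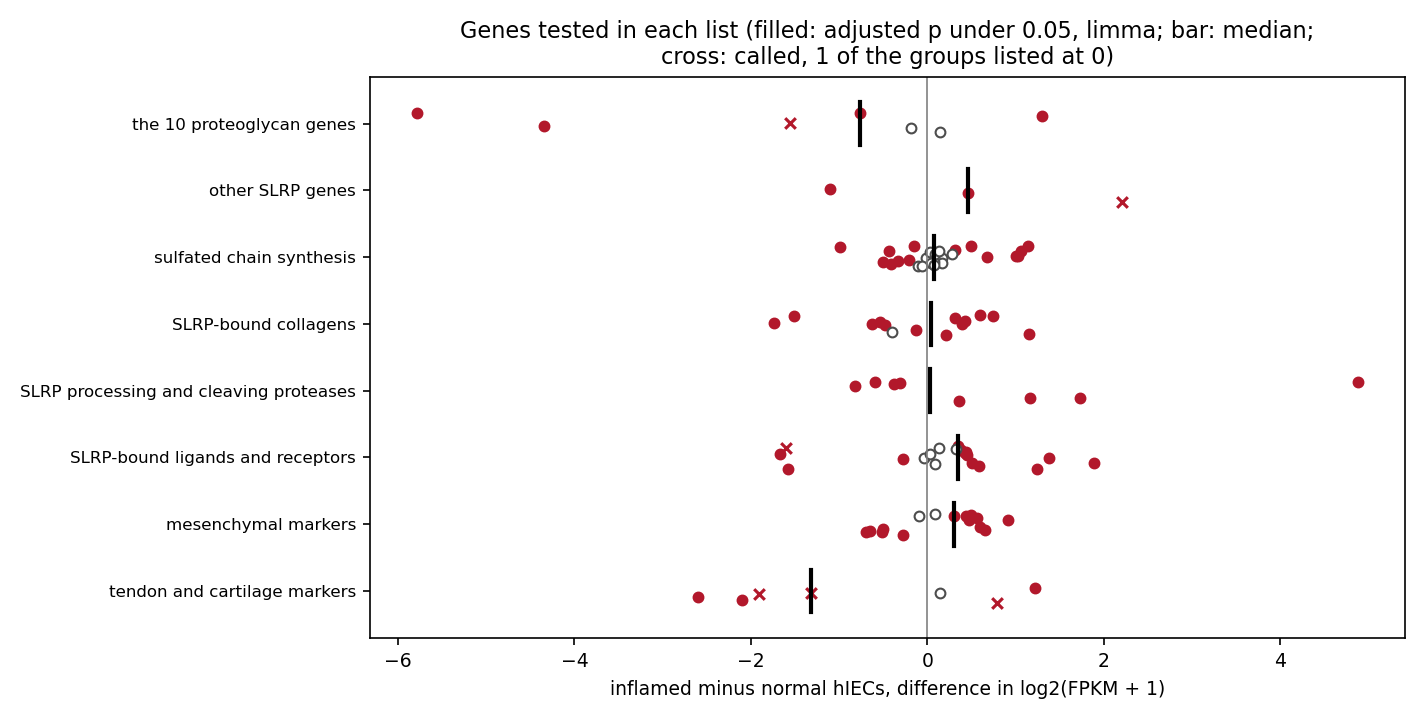
Difference in log2(FPKM + 1) between inflamed and normal hIECs for the tested genes of 8 lists, a point for each gene and a bar at the median of each list; filled points passed an adjusted p of 0.05, open points did not, and crosses mark called genes listed at 0 in 1 of the groups, whose position depends on the pseudocount. The medians of the proteoglycan genes (-0.77, PODN) and of the tendon and cartilage markers (-1.32, COL9A1) are the values of weakly expressed genes that passed the minimum only without cytokines, so their sizes depend on the pseudocount and the minimum, and the lists of chain enzymes, collagens and proteases spread to either side.

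Genes with the most similar pattern were ranked by the root mean square difference, over the 8 libraries, of log2(FPKM + 1) relative to normal hIECs. For OGN, among 6110 genes, these were MGP (0.189), DLK1 (0.330) and IGF2 (0.569). MGP, which encodes an inhibitor of calcification, was at 451 and 452 FPKM in normal hIECs, 395 and 382 with PM10, 22.6 and 20.5 in inflamed hIECs and 5.36 and 5.44 with both treatments. The closest to ASPN were MGP (0.736), OGN (0.745) and DLK1 (0.858), so that no gene came as near to ASPN as MGP did to OGN. For LUM they were TNIP1 (0.056), RRM2B (0.084) and ITGA11 (0.086). ITGA11, a collagen-binding integrin subunit, was at 23.4 and 22.8 FPKM in normal hIECs, 27.8 and 28.7 with PM10, 55.5 and 55.9 in inflamed hIECs, and 78.6 and 76.6 with both treatments. DCN was nearest to OLFML2B (0.106), SRSF5 (0.107) and PTPA (0.112), and BGN to NPIPB3 (0.185), ID3 (0.186) and PSAT1 (0.200). For the weakly expressed FMOD and PODN, whose differences this scale compresses, the nearest were ELAVL2 (0.086), SOX9 (0.092) and KANK4 (0.104) for FMOD, and for PODN they included INKA1 (0.044) and SOCS3 (0.067).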

How the data were processed

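RNA with an integrity number above 7.5 was used for poly-A selected libraries without strand information, sequenced as pairs of 100 bases. The authors removed adapters (Cutadapt 3.7), trimmed at Phred 20 (Sickle 1.33), dropped reads under 50 bases, aligned to GRCh38 (HISAT2 2.2.1) and estimated expression (StringTie 2.2.0). What the authors deposited is an FPKM value per gene and library. The annotation release is not given in the sources used here, and 99.5% of the gene identifiers were found in GENCODE 44, which gave the positions. FPKM holds no read counts, so no count model and no counting interval was used, and StringTie may share reads between overlapping genes.

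Group means of log2(FPKM + 1) of 14206 genes in 8 libraries were fitted with limma 3.58.1 in R 4.3.3, letting the prior variance follow the mean level, with Benjamini-Hochberg adjustment within each of 5 comparisons. The fit was tested on simulated data. The members, lists and tests were chosen with earlier results of these data known. Named genes are the members, up to 4 genes of each list with the largest called change between inflamed and normal hIECs and a mean of at least 1 FPKM, the 3 genes nearest in pattern to each tested member among those with a group mean of at least 10 FPKM, and genomic neighbours. CDH1, EPCAM, VIL1, CDX2, MUC2 and VIM were named as defining markers. MYH11 and FOXF2 were named as mesenchymal markers listed at 0, and ACTA2 and POSTN as carriers of a summed level. COL11A2, DES, CHST7 and BMP2 were named for the limit set by the minimum. Alternatives covered the pseudocount (0.1 and 0.5), filters on low values, scaling, a fit of the compared groups only, a constant prior variance, a block for the replicate number and each library left out. Upstream sequences came from RefSeq tables. A gene near PODN in pattern and a motif are not reported here. Tables and plots used Python 3.11.15, pandas 2.3.3, numpy 2.4.6 and matplotlib 3.10.9.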

Additional observations from a re-analysis of the deposited data

Results flagged for a closer look

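The effect of PM10 differed between inflamed and normal hIECs by limma's interaction term for 3 of the 7 tested genes. The difference between the PM10 effects, inflamed minus normal hIECs on the log2(FPKM + 1) scale, was -1.588 for OGN (adjusted p = 0.00178), -0.588 for DCN (adjusted p = 0.0215) and 0.316 for LUM (adjusted p = 0.032). That is 1 higher and 2 lower, beside 2.11% and 4.48% of all genes. The OGN result passed with any library left out, whereas the adjusted p reached 0.0836 for DCN and 0.115 for LUM, and 1 to 4 members were called. Each group held 2 libraries, too few to look for a single library far from the others of its group.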

How the results depend on the processing

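The members called are counted here under each alternative. For PM10 in normal hIECs the 2 calls became 1 after median centring, quantile normalization, a fit without the trend, or the replicate block, and 0 in a fit of these 2 groups alone (limma, 2 members at an unadjusted p under 0.05). For inflamed against normal hIECs the 5 calls became 3 under the stricter filter, by which 5 members were tested. For the interaction the 3 calls became 5 with a pseudocount of 0.1 and after rescaling without mitochondrial genes, which also changes the weight of the pseudocount, ASPN and PODN being called in addition. Leaving out each library in turn gave 1 to 2 calls for PM10 in normal hIECs, 5 to 6 for inflamed against normal hIECs, 6 to 7 for the same with PM10, 4 to 6 for PM10 in inflamed hIECs and 1 to 4 for the interaction.

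Directions turned only for differences that were not called. In normal hIECs with PM10, OGN gave -0.038 after median centring and between -0.0957 and 0.1286 with each library left out, negative without the second normal library. ASPN gave between -0.2015 and 0.0558 with each library left out, positive without the first normal library. The BGN interaction gave -0.0118 after quantile normalization. Of all values of single members under the alternatives, 562 kept their direction and their side of the threshold, 35 lost a call, 12 gained one and 4 changed sign. The cause of these changes was not tested.

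The libraries of different groups share replicate numbers. The deviations of same-numbered libraries from their group means correlated between -0.002 and 0.079 across genes. This showed no pairing shared by most genes, and it could not exclude pairing for single genes. For DCN the first library was the higher in every group, which did not hold for any other tested member. With the replicate number as a block, 1 member was called for PM10 in normal hIECs and 6 for inflamed against normal hIECs, since DCN was then called (adjusted p = 0.0156), and the LUM interaction had an adjusted p of 0.051. Values of 0.164 to 0.228 FPKM limited what could be seen, so changes of ASPN, FMOD and PODN in the libraries with cytokines could not be followed below that level.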
